A study of Homo sapiens with 4 samples.

Results

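A read-through gene is an annotated unit whose transcripts run from one gene into the next gene on the same strand, and its symbol joins the symbols of both genes with a hyphen. Read-through genes were found by that symbol. An entity was kept if a hyphen split its symbol into parts that were both symbols of other entities, which gave 129 read-throughs among the 53826 entities measured in each library. Their parents filled 255 distinct entities, because BLOC1S5, PRH1 and RAB4B each served 2 read-throughs. The gene in the first part of the symbol is called the upstream parent and the gene in the second part the downstream parent.

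The libraries came from PK-1, a human cell line of well-differentiated pancreatic ductal adenocarcinoma, in a study of SPRR1A, a small proline-rich protein of the cornified envelope. Stable cells were an infected population that carried retroviral pMXs-SPRR1A-FLAG or, as control, pMXs-DsRed, which encodes a red fluorescent protein. Transient cells received pCAG-SPRR1A-FLAG or, as control, pCAG-GFP, and RNA was taken 48 hours after transfection. Each of these 4 groups had 1 library of poly(A)-selected, strand-marked mRNA, so no difference below has a replicate check and no test was run.

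When RNA polymerase II passes the end of a gene without cleavage of the transcript, the RNA can continue into the neighbouring gene. Splicing then often joins an exon of the upstream gene, typically the one before its last exon, to an exon of the downstream gene, which skips the cleavage site between them. Such RNAs share much of their sequence with their parents, and the joining exon junction is a part that neither parent has. Some encode a fused protein, some keep only the upstream start codon and meet an early stop codon, and some are annotated as noncoding.

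The junctions below are shown because they hold the bases that distinguish a read-through RNA from the RNAs of its parents. They are those of the 3 read-throughs that passed the threshold in the transient comparison, and of 6 that are described for their level or for their place among their parents. Sequences are written 5′ to 3′ from GENCODE release 44 transcripts on GRCh38 (hg38). The last 15 bases of the upstream piece are in lower case and the first 15 bases of the downstream piece are in capitals.
RPL36A-HNRNPH2: gataagaagagaaagCTACACCAAAATTGC
P2RX5-TAX1BP3: ggcgcccggagctcgCAAAGAGTTGAAATT
SPECC1L-ADORA2A: gctgccccacagcgtGTGCCTCAGGAACCC
SENP3-EIF4A1: ctgcaaactcactgtCCAGGGGAATCCTCC
ATP6V1G2-DDX39B: agcaagcagcaggcgACAGGCATTTTCCAA
PPAN-P2RY11: gggaaatggatcgagGTGCCAAGTCCTGCC
NDUFC2-KCTD14: attttcctgaagaagGGGGTGACATTGGCC
TMEM189-UBE2V1: tctgcatcaccacagGAGTAAAAGTCCCTC
ISY1-RAB43: cagaaggctcctgggCTGCAGATCTGGGAC

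The RPL36A-HNRNPH2 junction joined chrX:101395443-101395457 to chrX:101411936-101411950 on the plus strand, across an intron of 16478 bases. The P2RX5-TAX1BP3 junction joined chr17:3669058-3669072 to chr17:3664784-3664798 on the minus strand. The SPECC1L-ADORA2A junction joined chr22:24414730-24414744 to chr22:24433131-24433145 on the plus strand. Among 97 such junctions that could be placed, both ends lay inside the RefSeq spans of the parents in 88. In P2RX5-TAX1BP3 the upstream end lay between the genes, past the end of P2RX5.

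In SENP3-EIF4A1 and ATP6V1G2-DDX39B the downstream end lay just before the RefSeq start of the downstream gene. SENP3-EIF4A1 joined chr17:7571465-7571479 to chr17:7572284-7572298 on the plus strand, across 804 bases. ATP6V1G2-DDX39B joined chr6:31546109-31546123 to chr6:31542134-31542148 on the minus strand. PPAN-P2RY11 joined chr19:10111008-10111022 to chr19:10113633-10113647 on the plus strand. The remaining 3 junctions lay on the minus strand with both ends inside the parents. NDUFC2-KCTD14 joined chr11:78072998-78073012 to chr11:78038744-78038758. TMEM189-UBE2V1 joined chr20:50127975-50127989 to chr20:50096806-50096820. ISY1-RAB43 joined chr3:129130088-129130102 to chr3:129095155-129095169.

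In the RefSeq annotation of GRCh38 patch 14, 128 of the 129 read-throughs were found by Entrez Gene identifier. All 124 loci with known strands had the read-through and its parents on the same strand. In 123 of them both parents overlapped the RefSeq span of the read-through. The distance from the end of the upstream gene to the start of the downstream gene had a median of 6676 bases, with quartiles of 1691 and 17338 bases. It was under 10 kb without overlap at 74 loci, the parents overlapped at 6, and the largest distance was 138088 bases. In BORCS7-ASMT the symbol rule paired a read-through on chromosome 10 with ASMT, which lies on chromosome X.

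The start of the read-through could be set beside the starts of its parents at 72 loci. At 56 of these it lay within 100 bases of the upstream gene's start, and at 36 it was the same base. At 1 locus it lay within 100 bases of the downstream gene's start, and this was IPO11-LRRC70. RefSeq classed 77 read-throughs as protein-coding, 46 as long noncoding RNA and 6 as transcribed pseudogenes.

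Exon models of the read-through and of both parents were found in GENCODE for 109 members. A median of 51.6% of a read-through's exon bases lay in exons of the downstream parent, 33.8% in exons of the upstream parent and 4.56% in neither. In 30 members no base was the read-through's own, and 58 had at most 150 bases of their own. A transcript with a junction from the upstream into the downstream gene was found for 99 of the 109. In 64 of these the splice donor was also used by the upstream parent and the acceptor by the downstream parent.

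Levels are given as log2 TPM, where TPM counts the transcripts of an entity after division by its length and scaling to a fixed total. A level of 0 is the floor of the files and covers every TPM up to 1. The number of read-throughs above this floor was 97 and 93 in the stable SPRR1A and DsRed libraries, and 96 and 101 in the transient SPRR1A and GFP libraries. In all 4 libraries 90 were above the floor, which is 69.8% of the read-throughs against 23.3% of all entities. A further 13 were above it in 1 to 3 libraries, and 26 were listed at 0 throughout. A TPM of at least 5 in every library was reached by 58.

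The read-throughs held between 0.233% and 0.272% of the TPM total of a library. The median level of those above the floor was 3.22 and 3.20 in the stable SPRR1A and DsRed libraries, and 3.03 and 3.29 in the transient SPRR1A and GFP libraries on the log2 scale. The corresponding medians over all entities above the floor lay between 4.07 and 4.21, so the typical detected read-through was the lower in each library. By class, 53 of 77 protein-coding members, 35 of 46 noncoding members and 2 of 6 pseudogenes were above the floor in every library. The median of their mean log2 levels was 3.56 for the protein-coding and 3.21 for the noncoding members.

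The 26 read-throughs listed at 0 throughout were mostly at loci with little signal. In 16 of them both parents were also listed at 0 in every library, among them CCL15-CCL14, a pair of chemokine genes, and APOC4-APOC2, a pair of apolipoprotein genes. Only the upstream parent was above the floor in any library in 7 cases, only the downstream parent in 1 and both in 2.

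The 13 read-throughs above the floor in some libraries were low. The highest log2 level stayed under 1 in 10 of them. They were above the floor in 11 cases in transient GFP, 7 in stable SPRR1A, 6 in transient SPRR1A and 3 in stable DsRed. The exceptions in level were IPO11-LRRC70, SPECC1L-ADORA2A and RBAK-RBAKDN, which are described below.

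The level of a read-through was nearer to that of its downstream parent than to that of its upstream parent. Among the 90 members above the floor in every library, 47 stayed within 0.5 of the downstream parent's log2 level in all 4 libraries and 11 within 0.5 of the upstream parent's, with 3 counted in both. The median absolute gap between the mean log2 level of the read-through and that of its parent was 0.36 for the downstream and 1.52 for the upstream parent. These values include parents listed at 0 throughout, which were 5 downstream and 17 upstream parents. With the parent above the floor in all 4 libraries, the gaps were 0.33 (n = 80) and 1.26 (n = 70). Across genes, the mean levels had a Pearson r of 0.66 with the downstream parent (n = 80) and 0.40 with the upstream parent (n = 70). These values describe genes within the same libraries, which are not independent, and reads from shared exons may have been counted for several of the 3 entities of a locus, since the handling of such reads is not given in the sources used here.

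**Figure D1:**
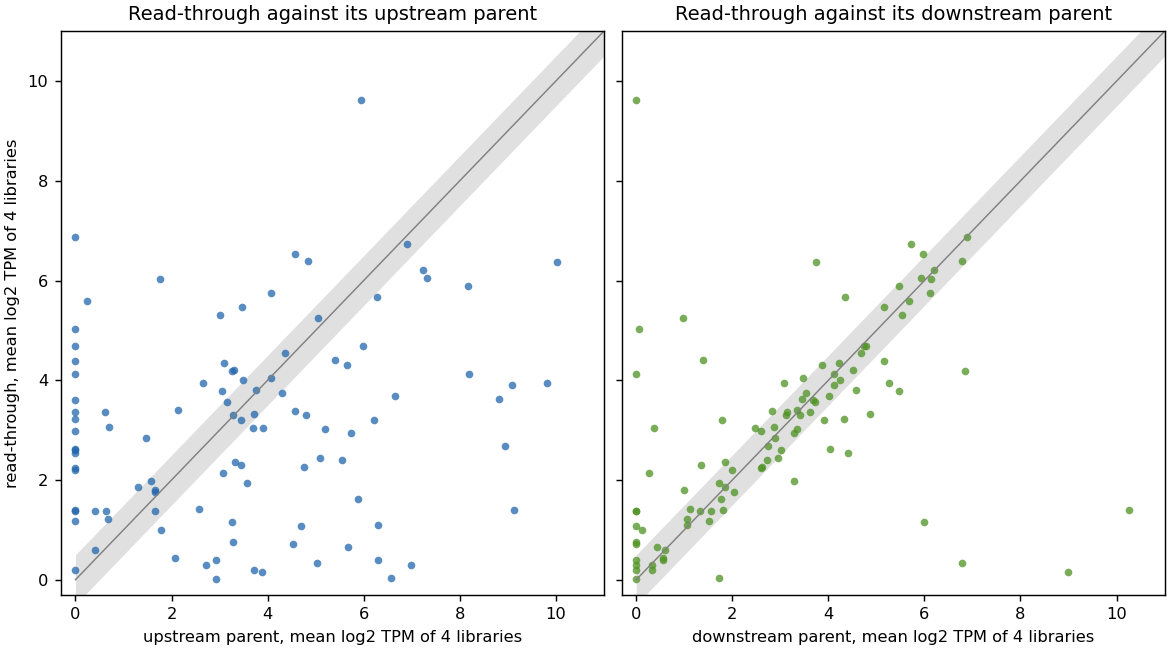
Mean log2 TPM over 4 libraries of each of 103 read-throughs above the floor in at least 1 library (vertical axis) against its upstream parent (left, blue) and its downstream parent (right, green). Each point is a read-through, the line marks equal levels and the grey band a gap of up to 0.5. Points gather along the line for the downstream parent, while for the upstream parent they spread widely, with the read-through lower by mean in 54 and higher in 49.

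The gap had no common direction. Over the 103 members above the floor in at least 1 library, the median of the log2 level of the read-through minus that of its upstream parent was -0.23, and of the read-through minus its downstream parent -0.0035. In the 90 members, 14 lay below both parents in all 4 libraries, 16 lay at or above both, 45 lay between them, and in 15 the order changed between libraries or was tied. Where the read-through lay between, it was above the upstream and below the downstream parent in 25 and the reverse in 20. Where both parents had a TPM of at least 5 throughout, the median gap to the upstream parent was -1.19. This filter picks loci for high parents and sets no such level for the read-through, which by itself favours a negative gap. Over the 90 members, which were picked by the read-through, the median was 0.13, so no direction is drawn from either value.

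The share of sequence moved with this closeness. The 38 members with exon models that stayed within 0.5 of their downstream parent had a median of 65.1% of their exon bases in that parent and 24.0% in the upstream parent. In the other 40 the medians were 43.4% and 43.2%. Whether reads of the downstream parent were counted for the read-through was not tested.

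Among the 10 highest read-throughs, ATP6V1G2-DDX39B, TMX2-CTNND1, TMEM256-PLSCR3, URGCP-MRPS24 and BLOC1S5-TXNDC5 followed the downstream parent. ATP6V1G2-DDX39B, which joins a subunit of the vacuolar proton pump to a helicase of mRNA export, had log2 levels of 7.01 and 7.0 in the stable SPRR1A and DsRed libraries, and 6.67 and 6.82 in the transient SPRR1A and GFP libraries. Its downstream parent DDX39B stood at 7.03, 7.03, 6.68 and 6.79 in the same order, while ATP6V1G2 was listed at 0 in every library. In this model 87.6% of the read-through's exon bases lay in DDX39B.

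TMX2-CTNND1 joins a thioredoxin-related membrane protein to CTNND1, a catenin that binds cadherins at cell contacts. Its log2 levels were 6.23 and 5.99 in the stable SPRR1A and DsRed libraries, and 6.19 and 6.47 in the transient SPRR1A and GFP libraries. CTNND1 stood at 6.21, 5.96, 6.17 and 6.45, which differed from the read-through by at most 0.03 in every library. TMX2 was higher than both, between 7.17 and 7.30.

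The other 3 lay near their downstream parents as well. BLOC1S5-TXNDC5 lay between 5.90 and 6.15, close to TXNDC5, a protein disulfide isomerase of the endoplasmic reticulum, at 6.0 to 6.26, and far above BLOC1S5 at 1.66 to 1.85. URGCP-MRPS24 lay between 6.19 and 6.48, below MRPS24, a protein of the mitochondrial ribosome, at 6.60 to 6.88, and above URGCP at 4.77 to 4.91. TMEM256-PLSCR3 lay between 5.77 and 6.23, close to PLSCR3, a phospholipid scramblase, at 5.68 to 6.12.

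SENP3-EIF4A1 was the highest of all read-throughs. It joins SENP3, a SUMO protease, to EIF4A1, a helicase of translation initiation that is used by every cell. Its log2 levels were 9.74 and 9.76 in the stable SPRR1A and DsRed libraries, and 9.44 and 9.52 in the transient SPRR1A and GFP libraries. SENP3 stood at 6.21, 6.15, 5.62 and 5.83, and EIF4A1 was listed at 0 in every library. A gene of such general use listed at 0 beside a read-through at this level makes the value of SENP3-EIF4A1 uncertain as a measure of the joined RNA, and what reads it holds was not tested.

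At PPAN-P2RY11 neither parent came near the read-through. It joins PPAN, a factor of ribosome biogenesis, to P2RY11, a receptor for extracellular ATP. The read-through stood at 5.25 and 5.23 in the stable SPRR1A and DsRed libraries, and 4.73 and 4.89 in the transient SPRR1A and GFP libraries. PPAN was listed at 0 in every library, and P2RY11 was listed at 0 in 3 libraries and at 0.21 in stable DsRed. As at SENP3-EIF4A1, what reads the read-through holds was not tested, so the listed 0 does not show that PPAN was silent. The pseudogene pair PKD1P6-NPIPP1 lay between 4.0 and 4.27 with both parents listed at 0, and belongs to families with many near-identical copies.

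Among the members above the floor in every library, 17 had an upstream parent listed at 0 throughout, 5 a downstream parent listed at 0 and 2 both. At 20 of the 90 loci, then, at least 1 parent was listed at 0 in every library beside a read-through above the floor. How reads were divided among the entities of these loci was not tested, so a listed 0 need not mean a silent parent.

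RPS10-NUDT3 and TMEM189-UBE2V1 were high without following the downstream parent. RPS10-NUDT3 joins a protein of the small ribosomal subunit to a hydrolase of inositol phosphates. It held steady at 6.33 and 6.39 in the stable SPRR1A and DsRed libraries, and 6.35 and 6.43 in the transient SPRR1A and GFP libraries. RPS10 was far above it at 9.93 to 10.18 and NUDT3 below it at 3.25 to 4.05. Of the read-through's exon bases 85.4% lay in NUDT3, so a large shared part did not go with a close level here.

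TMEM189-UBE2V1 joins an enzyme of plasmalogen synthesis to a ubiquitin-conjugating enzyme variant. It stood at 6.69 and 6.72 in the stable SPRR1A and DsRed libraries, and 6.91 and 6.57 in the transient SPRR1A and GFP libraries, and was thus highest in the transient SPRR1A library. UBE2V1 stood at 6.03, 6.07, 4.87 and 5.87, lowest in that same library. TMEM189 lay between 6.79 and 7.01. No base of this read-through's model was its own.

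SYS1-DBNDD2, NDUFC2-KCTD14, RNF103-CHMP3 and ABHD14A-ACY1 lay above both of their parents in every library. SYS1-DBNDD2, whose upstream parent acts in Golgi transport, lay at 6.85, 6.79, 6.18 and 6.29 with DBNDD2 at 6.31, 6.24, 5.62 and 5.74. RNF103-CHMP3 lay between 5.25 and 5.66, and CHMP3, a subunit of the ESCRT-III membrane-scission complex, between 4.57 and 5.43. ABHD14A-ACY1 lay between 4.28 and 4.42, and ACY1, an aminoacylase, between 4.10 and 4.35. GPR75-ASB3, DNAAF4-CCPG1 and TVP23C-CDRT4 had the same order at lower levels, from 2.87 to 3.81.

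Of these 7, NDUFC2-KCTD14 alone stayed within 0.5 of its upstream parent, NDUFC2, a subunit of respiratory complex I. The read-through stood at 5.53 and 5.45 in the stable SPRR1A and DsRed libraries, and 5.0 and 5.01 in the transient SPRR1A and GFP libraries, and NDUFC2 at 5.34, 5.22, 4.80 and 4.85. KCTD14 was low at 0.72, 0.33 and 0 in the first 3 and stood at 2.86 in transient GFP. The read-through did not share this step of its downstream parent.

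**Figure D2:**
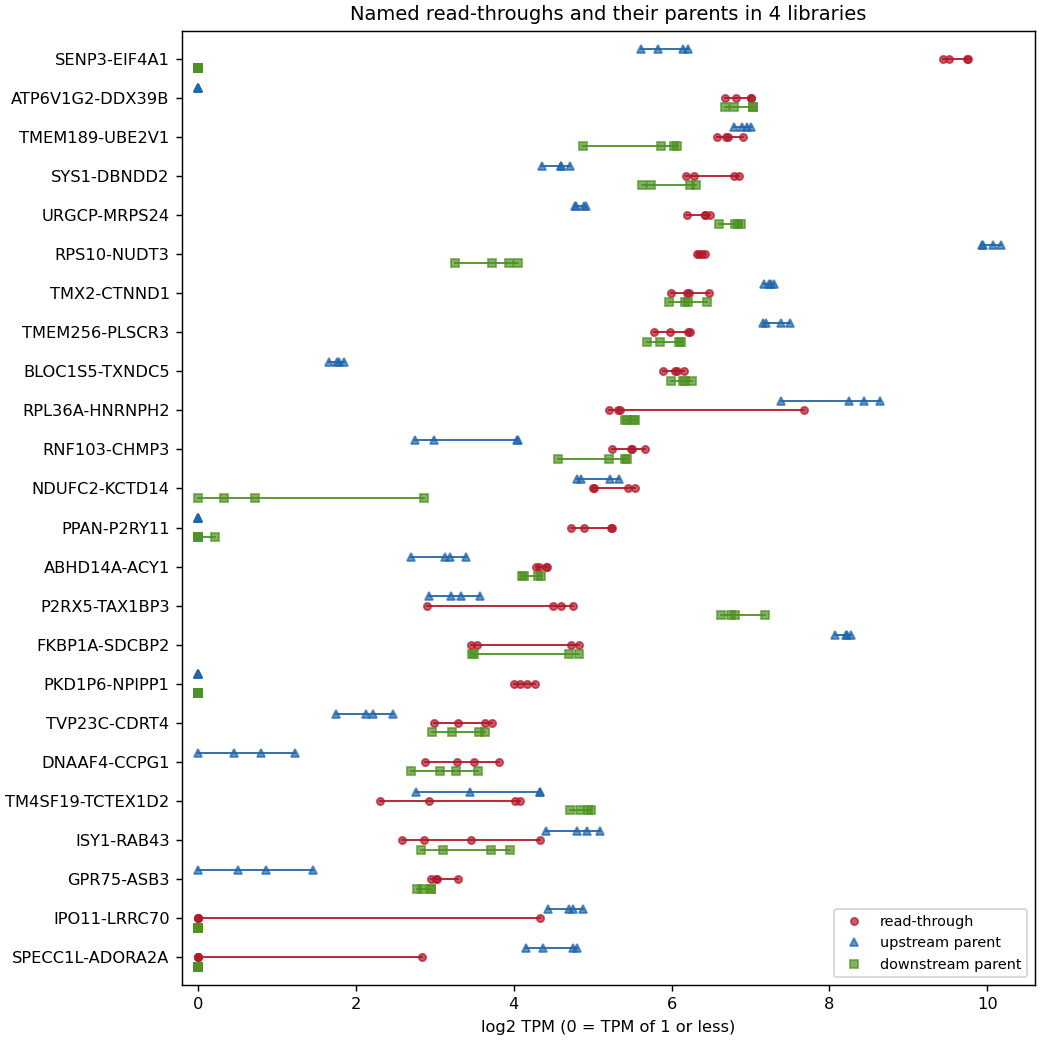
Log2 TPM of the 24 named read-throughs (red circles) and of their upstream (blue triangles) and downstream parents (green squares), ordered by the mean level of the read-through. Each symbol is 1 library and each line spans the 4 libraries of an entity. Most read-throughs vary little, while RPL36A-HNRNPH2 reaches from 5.20 to 7.68, and IPO11-LRRC70 and SPECC1L-ADORA2A are at 0 in 3 libraries.

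The comparison of SPRR1A with its control asks whether gene expression moved with SPRR1A. The check of the labels came from SPRR1A itself, which had a log2 TPM of 10.93 in stable SPRR1A against 0.75 in stable DsRed, and 16.60 in transient SPRR1A against 3.56 in transient GFP. TPM has a fixed total per library, and in the transient SPRR1A library SPRR1A took 9.92% of it. The 6 epithelial markers were between 7.03 and 12.94 on the log2 scale in every library, and the leukocyte, endothelial and endocrine markers were listed at 0. Of the 4 fibroblast and the 4 acinar markers, 3 each were listed at 0, and the others were low, COL1A1 at 1.96 to 2.62 and PRSS1 at 0.64 to 1.86.

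In the stable model, 1 of 99 read-throughs above the floor in either library was past 2-fold higher in SPRR1A than in DsRed, and 0 were past 2-fold lower. Among all entities the shares were 0.526% higher and 0.421% lower. The median log2 difference, 0.07, was that of all entities above the floor, 0.07. Within 0.5 of no difference lay 92 of the 99. With both libraries at a TPM of 5 or more, the standard deviation of the log2 differences was 0.18 over 64 read-throughs and 0.17 over 9835 entities.

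The member past the threshold was IPO11-LRRC70, which joins IPO11, an import receptor of the nucleus, to LRRC70, a leucine-rich repeat protein. It was listed at 0 in stable DsRed, transient SPRR1A and transient GFP and stood at a log2 level of 4.33 in stable SPRR1A. IPO11 was at 4.44 and 4.76 in the stable SPRR1A and DsRed libraries, and 4.70 and 4.88 in the transient SPRR1A and GFP libraries, and LRRC70 was listed at 0 in all 4. The library with the read-through was thus the lowest of the 4 for its upstream parent.

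LRRC70 lies inside IPO11, at chr5:62578819-62581446, and the read-through entry at chr5:62578735-62628589 starts 84 bases before it and 165972 bases after the start of IPO11. It is annotated as noncoding, and no exon model of it was found in GENCODE, so no junction is shown. The summed TPM of the read-through and both parents was 42.9 with stable SPRR1A and 29.0 with DsRed, a log2 difference of 0.56 with values at the floor set to a TPM of 1.

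In the transient model, 0 of 101 read-throughs were past 2-fold higher in SPRR1A than in GFP and 3 were past 2-fold lower, against 0.19% and 0.7% of all entities. The median log2 difference was -0.21 for the read-throughs and -0.19 for all entities above the floor. Of any size, 9 read-throughs were higher and 92 lower. After centring on the median of all entities whose TPM was 5 or more in each of the libraries compared, -0.18, the split was 45 higher and 56 lower.

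The 3 members past the threshold were P2RX5-TAX1BP3, RPL36A-HNRNPH2 and SPECC1L-ADORA2A, and all 3 kept a log2 difference past 1 after that centring. With both libraries at a TPM of 5 or more, the standard deviation of the log2 differences was 0.39 over 61 read-throughs and 0.19 over 10154 entities. Without P2RX5-TAX1BP3 and RPL36A-HNRNPH2 it was 0.19 over 59. Those members were left out for the size of their differences, so a fall was fixed in advance. No entities were left out of the 10154, so the value over 59 is not like theirs.

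RPL36A-HNRNPH2 joins a protein of the large ribosomal subunit to an RNA-binding protein of splicing, with a junction from the fourth exon of its transcript. Its log2 levels were 5.32 and 5.34 in the stable SPRR1A and DsRed libraries, and 5.20 and 7.68 in the transient SPRR1A and GFP libraries. The GFP library stood apart and the other 3 lay within 0.14 of each other. RPL36A stood at 8.44, 8.64, 8.25 and 7.38, lowest in the GFP library, and HNRNPH2 at 5.52, 5.54, 5.41 and 5.44, level in all 4.

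In TPM, the read-through was 205 in transient GFP and 36.8 in transient SPRR1A, while RPL36A was 167 and 304. The sum of the 3 entities was 415 in transient GFP and 384 in transient SPRR1A, a log2 difference of -0.11. The log2 difference of the read-through was -2.47, that of RPL36A 0.87 and that of HNRNPH2 -0.03. The sums thus lay closer together than the values of the read-through or of RPL36A. In the exon model 47.9% of the read-through's bases were also in RPL36A, 52.1% were in HNRNPH2 and 0 were its own. The part of shared reads in these values was not tested.

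P2RX5-TAX1BP3 joins P2RX5, an ion channel gated by ATP, to TAX1BP3, a PDZ-domain protein, and is annotated as noncoding. Its log2 levels were 4.76 and 4.60 in the stable SPRR1A and DsRed libraries, and 2.90 and 4.50 in the transient SPRR1A and GFP libraries. Here the transient SPRR1A library stood apart. TAX1BP3 stood at 6.80, 6.75, 7.19 and 6.63, highest in that library, and P2RX5 at 3.57, 3.21, 2.93 and 3.33.

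The log2 difference between transient SPRR1A and GFP was -1.60 for this read-through, 0.56 for TAX1BP3 and -0.40 for P2RX5. The summed TPM of the 3 was 161 in SPRR1A and 132 in GFP, a log2 difference of 0.29. In contrast to RPL36A-HNRNPH2, 53.2% of the exon bases of this read-through, 3141 bases, lay in neither parent.

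SPECC1L-ADORA2A joins SPECC1L, a protein of the cytoskeleton, to ADORA2A, an adenosine receptor. It was listed at 0 in stable SPRR1A, stable DsRed and transient SPRR1A and stood at 2.84 in transient GFP. SPECC1L stood at 4.81, 4.75, 4.37 and 4.15, lowest in the GFP library, and ADORA2A was listed at 0 in all 4. In TPM the read-through was 7.15 and SPECC1L 17.8 in transient GFP, while SPECC1L was 20.7 in transient SPRR1A.

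**Figure D3:**
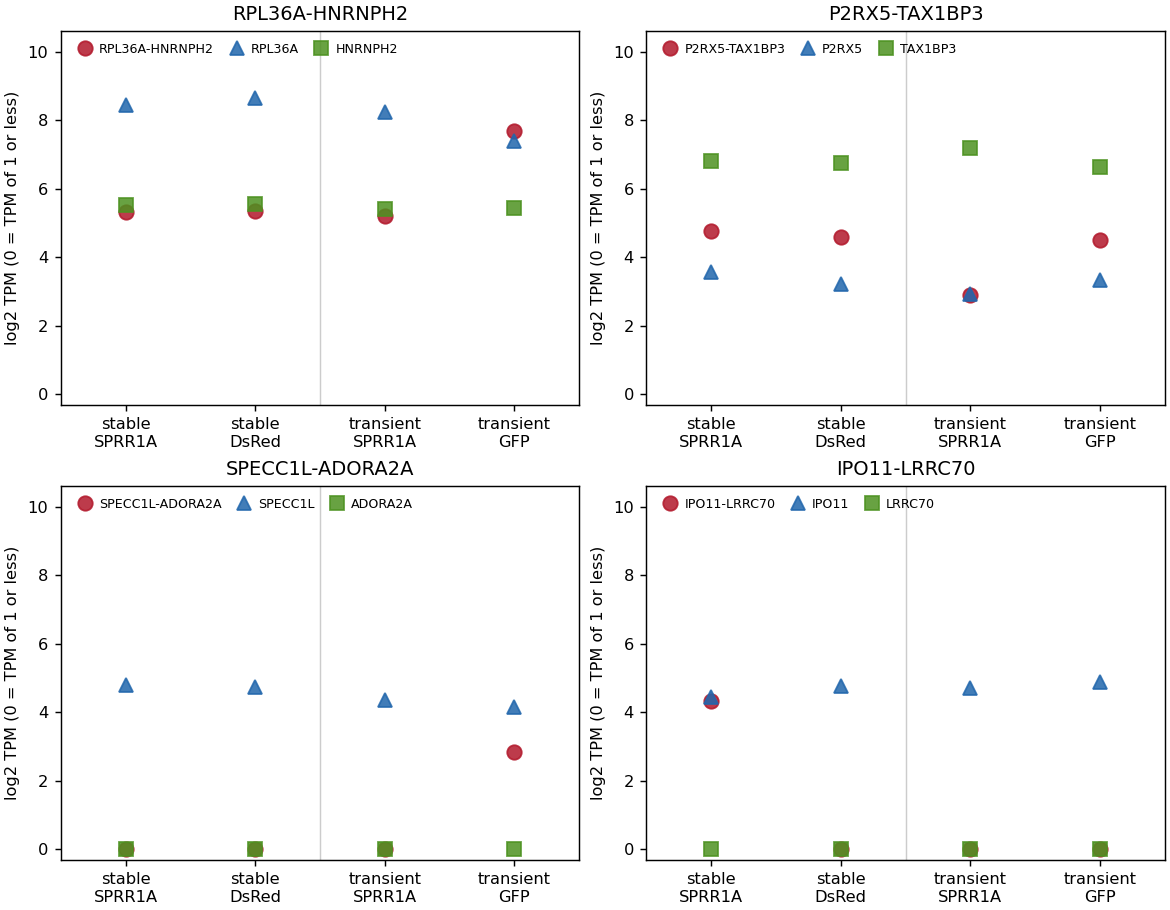
Log2 TPM in each of 4 libraries of the 4 read-throughs past 2-fold in the stable or transient model (red circles), with the upstream (blue triangles) and downstream parent (green squares), where 0 stands for a TPM of 1 or less. In each panel a single library holds the read-through apart from the other 3, which are transient GFP for RPL36A-HNRNPH2 and SPECC1L-ADORA2A, transient SPRR1A for P2RX5-TAX1BP3 and stable SPRR1A for IPO11-LRRC70.

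In all 4 of these members the value of a single library stood apart. The other model did not show the step. The log2 difference was -0.02 for RPL36A-HNRNPH2 and 0.16 for P2RX5-TAX1BP3 in the stable model, and IPO11-LRRC70 was listed at 0 in both transient libraries, as SPECC1L-ADORA2A was in both stable ones. The summed TPM of the locus was past 2-fold at 0 of these 4 loci in the model concerned, whether floor values were taken as a TPM of 1 or of 0. In the library where the read-through was higher, its parents still held more of that sum than it did. The step of the read-through alone could therefore not have moved the sum 2-fold, and no conclusion on the locus is drawn from it.

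**Figure D4:**
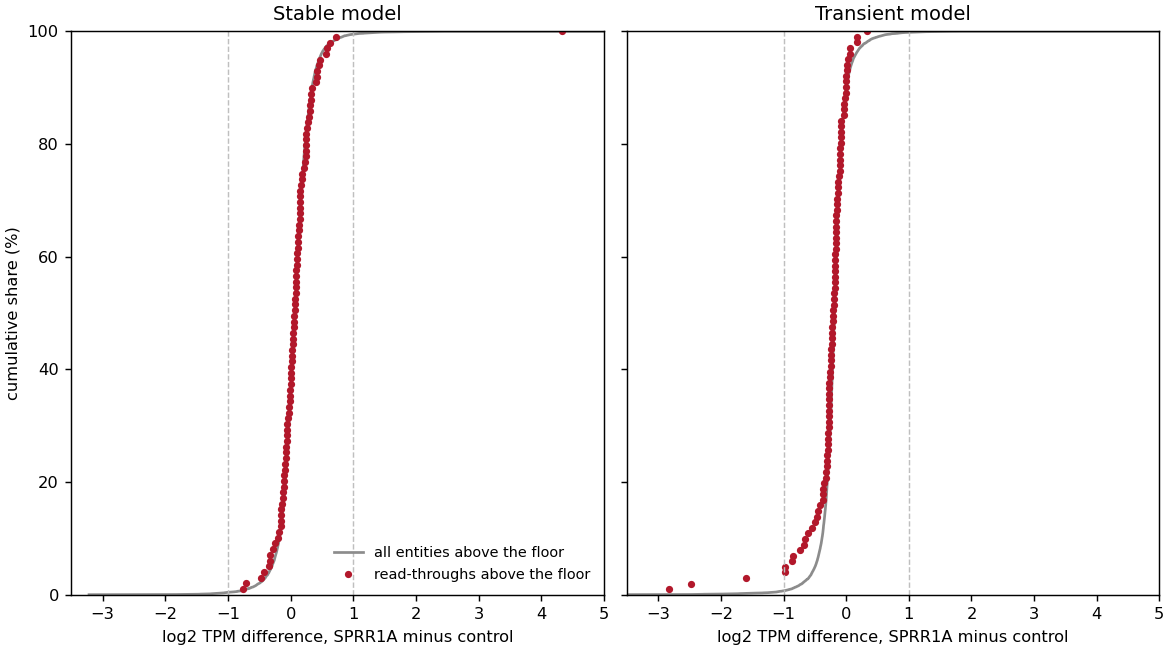
Cumulative share (vertical axis, percent) of entities with a log2 TPM difference between SPRR1A and control up to the value on the horizontal axis, in the stable (left) and transient model (right). Red points are read-throughs and the grey line all entities above the floor in at least 1 of the 2 libraries, and dashed lines mark 2-fold. The read-throughs follow the line in the stable model apart from IPO11-LRRC70 at 4.33, and in the transient model their lower tail reaches further left, to -2.84 for SPECC1L-ADORA2A.

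Just short of the threshold in the transient model were RBAK-RBAKDN and CHURC1-FNTB, each with a log2 difference of -0.97, and ISY1-RAB43 with -0.87. On the higher side the read-through furthest from no difference was TMEM189-UBE2V1 at 0.34, with UBE2V1 at -1.0. RNF103-CHMP3 had a log2 difference of 0.17 and CHMP3 one of -0.86. In both pairs the read-through and its downstream parent had differences of opposite sign. RBAK-RBAKDN and CHURC1-FNTB fell outside the rule for named genes and were picked after their values were seen, as were CCL15-CCL14, APOC4-APOC2, BORCS7-ASMT and MSANTD3-TMEFF1.

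Read-throughs and parents were then compared by their differences. In the stable model the sign of the log2 difference was shared with the downstream parent in 68 of 80 loci and with the upstream parent in 51 of 70, with a Pearson r across genes of 0.64 and 0.36. In the transient model the sign was shared in 68 of 80 and 59 of 70, and after centring in 57 of 80 and 39 of 70. Before centring most read-throughs, and the median of all entities, were lower in that model. The Pearson r there was -0.23 with the downstream and -0.42 with the upstream parent. Without the members past the threshold it was 0.0071 over 78 and -0.10 over 68. Left out were RPL36A-HNRNPH2 and P2RX5-TAX1BP3, which were lower with SPRR1A while RPL36A (0.87) and TAX1BP3 (0.56) were higher. The upstream parent P2RX5 was lower too (-0.40), so that pair did not make the value with the upstream parent negative.

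**Figure D5:**
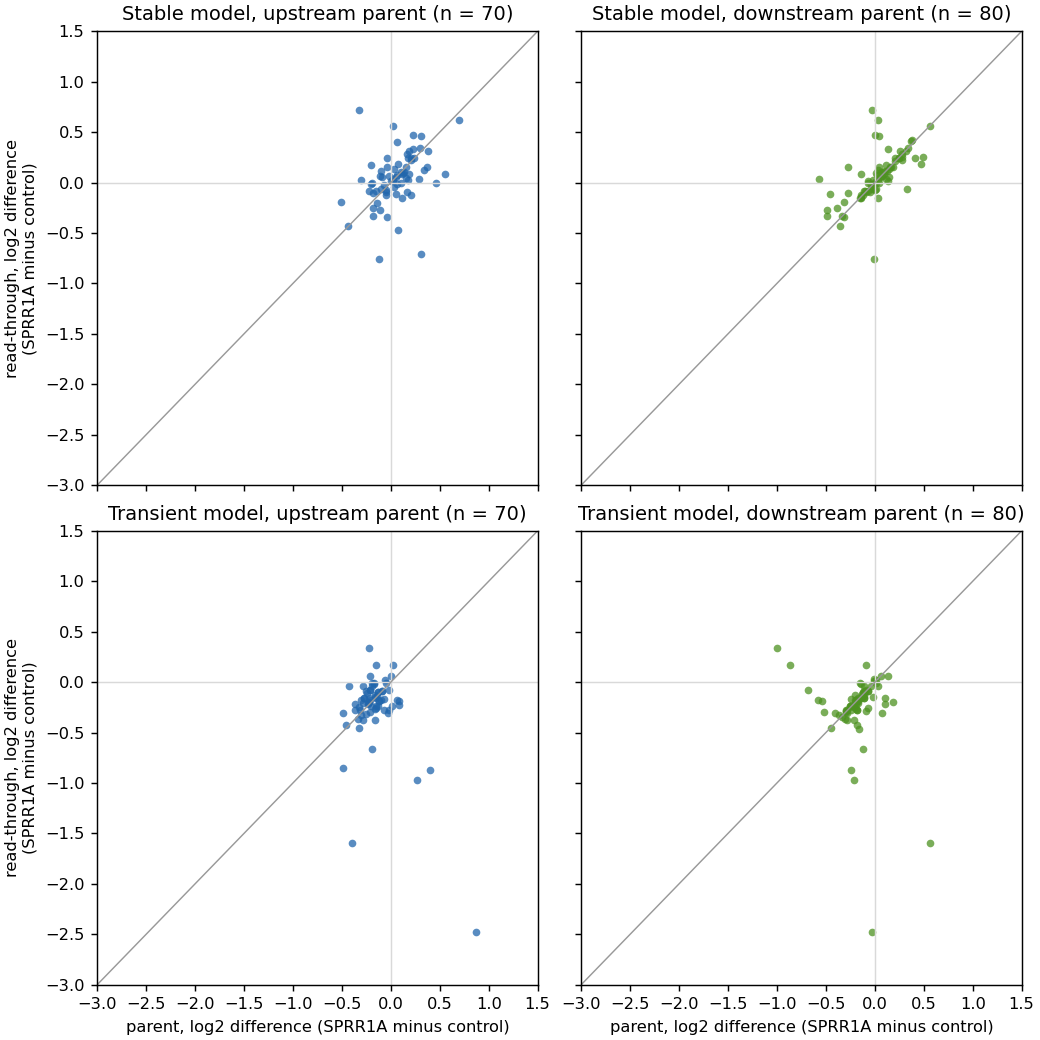
Log2 TPM difference between SPRR1A and control of each read-through (vertical axis) against that of its upstream (left, blue, n = 70) or downstream parent (right, green, n = 80), in the stable (top) and transient model (bottom), for pairs above the floor in all 4 libraries. The diagonal marks equal differences. In the transient panels RPL36A-HNRNPH2 at -2.47 and P2RX5-TAX1BP3 at -1.60 lie far below the others.

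The counts of parents past the threshold were near the shares of all entities. In the stable model 0 of 185 parents above the floor were past 2-fold in either direction, against 0.526% higher and 0.421% lower of all entities. In the transient model 1 of 183 was lower and 0 were higher, against 0.7% and 0.19%. This was KCTD14, which was listed at 0 in transient SPRR1A and stood at 2.86 in transient GFP.

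The controls differ in vector, in reporter and in the way of delivery, which cannot be told apart, and the 2 transient libraries are compared with the stable ones here only to set the size of the differences above. In transient GFP 8 of 102 read-throughs were past 2-fold higher than in stable DsRed and 0 were lower, against 6.86% and 0.661% of all entities. Between the SPRR1A libraries, 2 of 100 were past 2-fold higher in transient than in stable cells and 2 were lower, against 2.61% and 0.974%. The share of 7.84% for the controls was close to that of all entities.

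Of the 8 members, FKBP1A-SDCBP2 and TM4SF19-TCTEX1D2 were also past 2-fold higher between the SPRR1A libraries. FKBP1A-SDCBP2, which joins the binding protein of the drug FK506 to a syntenin, stood at 3.53 and 3.46 in the stable SPRR1A and DsRed libraries, and 4.72 and 4.82 in the transient SPRR1A and GFP libraries. SDCBP2 stood at 3.49, 3.47, 4.70 and 4.82, the same step, while FKBP1A stayed between 8.07 and 8.28. The read-through here tracked its downstream parent within 0.04 in every library.

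TM4SF19-TCTEX1D2 joins a tetraspanin-like membrane protein to a dynein light chain. It stood at 2.93 and 2.31 in the stable SPRR1A and DsRed libraries, and 4.07 and 4.02 in the transient SPRR1A and GFP libraries. TM4SF19 stood at 3.45, 2.76, 4.34 and 4.34, and TCTEX1D2 stayed between 4.71 and 4.98. This read-through moved with its upstream parent. In its exon model 84.4% of the bases lay in that parent, and whether this bears on the step was not tested.

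ISY1-RAB43, which joins a protein of the spliceosome to a small GTPase, stood at 2.87 and 2.59 in the stable libraries and at 3.46 in transient SPRR1A and 4.33 in transient GFP. RAB43 stood at 3.11, 2.83, 3.71 and 3.96, and ISY1 stood at 5.09, 4.93, 4.80 and 4.40. MSANTD3-TMEFF1, at 0.52 in stable DsRed and 1.61 in transient GFP, tracked TMEFF1 at 0.49 and 1.58. CHURC1-FNTB, at 3.31 in stable DsRed and 4.31 in transient GFP, was only just past the threshold, and RBAK-RBAKDN was listed at 0 in stable DsRed and stood at 1.20 in transient GFP. RPL36A-HNRNPH2 and SPECC1L-ADORA2A made up the 8.

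Genes whose products end or survey such transcripts were described as lists. All 31 genes of cleavage, polyadenylation and transcription termination were above the floor, and 0 were past 2-fold in either model, where under 1% of all entities were in each direction. Their median log2 difference was 0.05 in the stable model, from -0.23 for INTS11, a nuclease of the Integrator complex, to 0.49 for TTF2, a termination factor. In the transient model it was -0.17, from -0.36 for SCAF8, which prevents early polyadenylation, to 0.16 for CLP1, a cleavage factor subunit. These medians lay near those of all entities, 0.07 and -0.19.

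All 23 genes of nonsense-mediated decay, which removes RNAs with an early stop codon, were above the floor and 0 were past 2-fold in either model, against the same small shares of all entities. Their median log2 difference was -0.0014 with stable and -0.15 with transient SPRR1A. SMG1, the kinase that phosphorylates UPF1, had the highest value in the stable model at 0.25 and the lowest in the transient model at -0.35. SMG9, a partner of SMG1, had the lowest stable value at -0.15, and EIF4A3, a core protein of the exon junction complex, the highest transient value at -0.03.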

How the data were processed

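Poly(A)-selected mRNA of 4 PK-1 libraries was sequenced with paired ends. The authors used Strand NGS with its default settings against human transcripts (hg38), computed TPM and deposited log2 TPM per entity with a floor at 0. Software version, annotation release and the treatment of multi-matching reads are not given in the sources used here, and the depth is unknown.

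Members and gene lists were chosen with earlier results of these data known. Where a parent's symbol stood on 2 entities, the one overlapping the read-through was taken. Near-identical copies (SLX1A, SLX1B, BOLA2, NME1, NME2) make their entries uncertain. Log2 differences past 1 (2-fold) were counted among entities above the floor in at least 1 of the 2 libraries. With 1 library per group no test was run. Named are members past 2-fold in either model, the 10 highest, the 5 with the widest range among those above the floor in all 4 libraries, and up to 10 at or above both parents, with their parents. Of the gene lists, up to 4 genes with the largest differences are named.

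Positions are from RefSeq (GRCh38 patch 14), exons and junctions from GENCODE 44. Junctions on chromosome 8 were left out, and exon models were missing for some members. Alternatives to the main settings were pseudocounts of 1 and 0.1 on the TPM, filters on low values and centring. A further alternative kept only loci whose parents both overlapped the read-through on its strand. Correlations and spread without members past the threshold, and floor values taken as a TPM of 0, were added after the data were seen. Python 3.11.15, numpy 2.4.6, pandas 2.3.3 and matplotlib 3.10.9 were used.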

Additional observations from a re-analysis of the deposited data

How the results depend on the processing

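Of 57 alternative values of the counts and level gaps, 50 stayed within 1.5 times the main count or within 0.1 of the main log2 gap. The filters and pseudocounts could only lower a count or leave it as it was. Where the main count was 0, they could not have changed it, so those unchanged values do not show stability. Requiring values above the floor in both libraries left 0 read-throughs past 2-fold higher in the stable model and 1 lower in transient than stable SPRR1A, since IPO11-LRRC70 is listed at 0 in one library of each pair. That filter also left 2 of the 3 lower in the transient model, since SPECC1L-ADORA2A is listed at 0 in transient SPRR1A. It left 6 of the 8 higher in transient GFP than in stable DsRed. With log2(TPM + 1), 5 read-throughs were past 2-fold higher in transient GFP than in stable DsRed instead of 8. With centring, 1 was past 2-fold lower in that comparison instead of 0. The median gap to the upstream parent changed sign, from -0.23 to 0.13, over the members above the floor in all 4 libraries, and was -1.19 where both parents had a TPM of at least 5, where the gap to the downstream parent was -0.17. Its sign therefore depends on which loci are counted.

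The Pearson r of log2 differences in the transient model went from -0.42 to -0.10 for the upstream and from -0.23 to 0.0071 for the downstream parent without the members past the threshold. All 144 alternative log2 differences of the named read-throughs in the stable and transient models stayed on their side of the 2-fold threshold. Most of the main differences lay well inside it, where these settings could hardly have moved them across. No paired analysis was possible because each group holds 1 library, so that the groups compared share fewer than 2 replicate numbers. Depth in reads is unknown, so no counting interval can be given, and values near the floor are the least certain.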

Other observations

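The symbol rule leaves out read-through genes whose symbol uses an older name of a parent. By RefSeq synonyms and overlapping positions 9 such entities were found, of which 8 were above the floor in at least 1 library and 7 in all 4. SERF2-C15ORF63 was the highest of them, with log2 TPM of 7.25 and 7.33 in the stable SPRR1A and DsRed libraries, and 6.85 and 6.93 in the transient SPRR1A and GFP libraries. C7orf55-LUC7L2, whose downstream parent is a splicing factor, stood at 5.21, 5.04, 5.20 and 5.42 in the same order. RAD51L3-RFFL lay between 3.94 and 4.39, and C15orf38-AP3S2 between 3.86 and 4.30.

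PIR-FIGF was the one entity of the 9 past 2-fold. It was listed at 0 in transient SPRR1A and stood at 3.65 in transient GFP, 3.10 in stable SPRR1A and 2.96 in stable DsRed, so that here too a single library stood apart from the other 3. These entities were picked after their values were seen.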
